A study of Mus musculus with 6 samples.

Results

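The globins and red cell genes described here are 10 rows of a deposited gene table with 49492 rows. They were chosen by gene symbol, and the table held all 10. They comprise 4 definitive globins (Hba-a1, Hba-a2, Hbb-bs and Hbb-bt), 3 primitive globins (Hba-x, Hbb-y and Hbb-bh1), and 3 genes of haem synthesis and the red cell membrane (Alas2, Slc4a1 and Sptb). RNA was sequenced from the soft palate of mouse embryos at E14.5, in 3 libraries of genotype Dlx5-/- and 3 control libraries labelled as wild type. The posterior palate was dissected as whole tissue, so blood in its vessels was sampled with it. Dlx5 encodes a homeodomain protein active in the developing jaw and palate, and the series asks how neural crest cells and myoblasts interact during oropharyngeal development. The labels do not say how the Dlx5 allele was made, which strain was used, or whether each library came from a separate embryo, and the p-values below therefore reflect only how far these libraries spread, which may be technical.

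In the mouse embryo, the first red cells arise in the yolk sac as the primitive lineage, which carries the embryonic globins. Definitive red cells from the fetal liver follow and carry the adult-type alpha and beta globins. Both kinds circulate together in mid-gestation, while the share of primitive cells declines. A haemoglobin molecule pairs alpha-like with beta-like chains around haem, and a skeleton of spectrin anchored to membrane proteins gives the red cell its shape.

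Libraries held 8741020, 10541150 and 11492409 estimated counts in Dlx5-/- palates and 9554906, 11922442 and 6891798 in control palates. Dlx5 itself had 7, 15 and 17 counts in Dlx5-/- libraries, against 242, 193 and 113 in control libraries, which matched the labels. It was the only gene of 16218 tested that passed at an adjusted p of 0.05 (edgeR quasi-likelihood, log2 fold change -3.93, adjusted p = 0.0205). Markers of palate mesenchyme were present in every library, with 3483 to 6138 CPM (counts scaled to library size with TMM factors) summed over 11 genes in Dlx5-/- libraries and 4946 to 5478 CPM in control libraries. The libraries Dlx5-/- replicate 3 and control replicate 3 stood apart in red cell genes, and values with and without them are given below. Their primitive globin shares were the highest and next highest, at 30.2% and 14.2% of globin counts. The peak of Slc4a1 was in control replicate 3 alone. In Dlx5-/- replicate 3, brain markers also summed to 204 CPM over 8 genes, against 6.18 and 22.8 CPM in the other Dlx5-/- libraries and 4.78 to 14.8 CPM in control libraries. Dlx5-/- replicate 1 was the highest library for each of the 4 definitive globins. Ttr, a gene of liver and choroid plexus, measured 627, 1.08 and 19.0 CPM in Dlx5-/- libraries and 0.431 to 1.29 CPM in control libraries. The part of its source tissue in the globin values was not tested.

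None of the 10 red cell genes passed the edgeR test at an adjusted p of 0.05, where 0.00617% of all tested genes did. At an unadjusted p under 0.05 there was 1 of the 10, Sptb, which was lower in Dlx5-/- palates. Of all tested genes, 12.8% did so, 5.61% higher and 7.23% lower. At an adjusted p under 0.1 Sptb was again the only member, beside 1.58% of all tested genes that were lower. The estimates were above 0 for 8 members and below 0 for 2, and several changed sign with the fit or the libraries used, as given below. The 8 include 2 pairs of adult-type globins with nearly the same sequence, whose rows are not separate cases. The median log2 fold change of the members was 0.17, beside 0.01 over all genes tested. In whole tissue, fewer red cells and less RNA per red cell cannot be told apart.

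**Figure D1:**
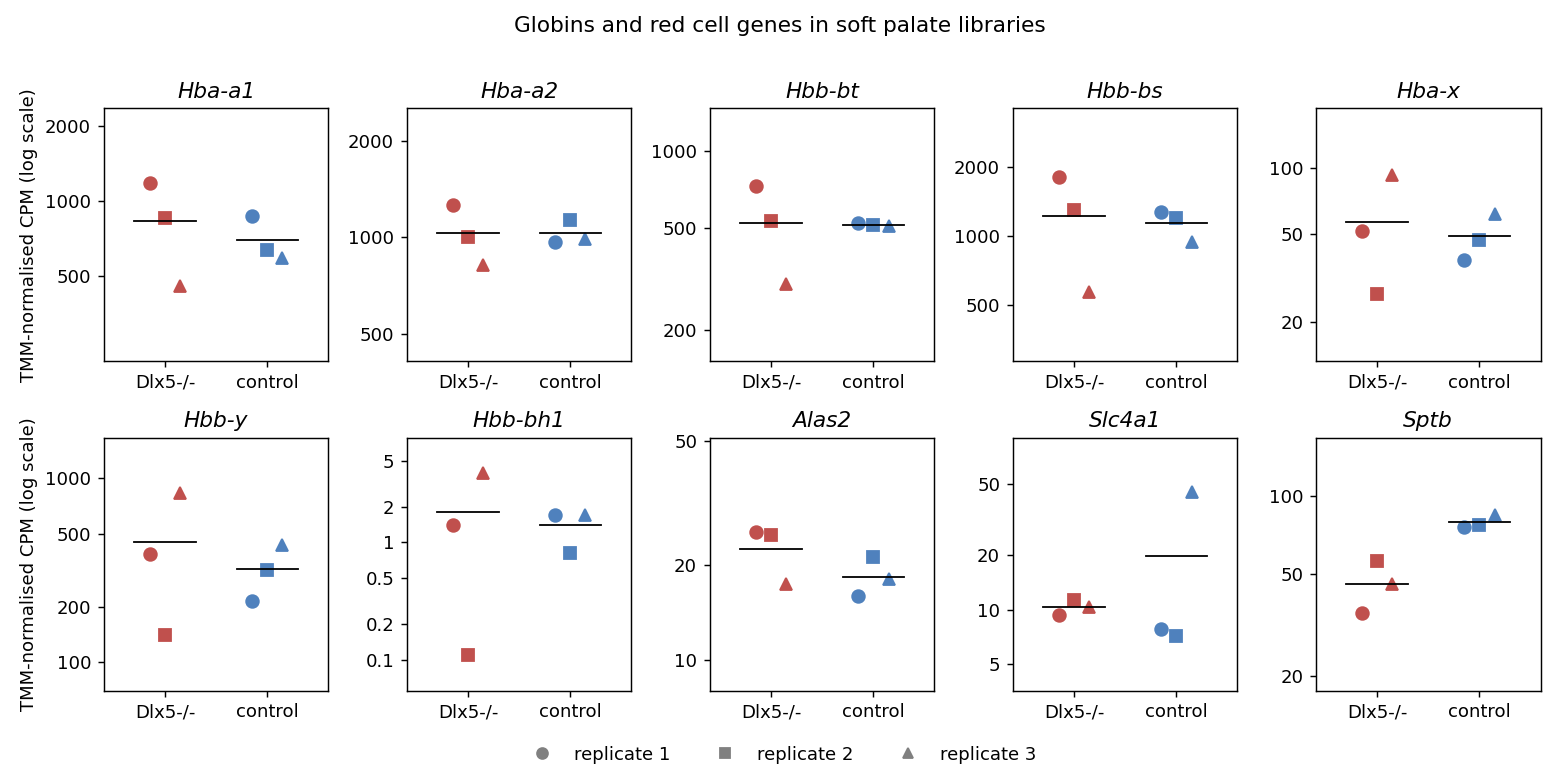
TMM-normalised CPM (log axis) of each of the 10 genes, with Dlx5-/- libraries in red and control libraries in blue. Each symbol is 1 library and each line the mean of 3. The groups overlap in every panel but Sptb, where the Dlx5-/- libraries lie between 35.1 and 55.9 CPM, all below the control libraries.

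The adult-type alpha globins are encoded by Hba-a1 and Hba-a2, a tandem pair on chromosome 11 (GRCm38, 32283511 to 32284465 and 32296489 to 32297298, plus strand). Their coding sequences differ by 1 base of 429, and the adult-type beta globins Hbb-bs and Hbb-bt on chromosome 7 (103826534 to 103828096 and 103812524 to 103813996, minus strand) differ by 1 base of 444. Stretches of 41 coding bases around the difference are shown because they carry all that separates the pair within the coding part. The differing base is in capitals. Counted from the A of the start codon, the change from Hba-a1 to Hba-a2 is C381T and from Hbb-bs to Hbb-bt it is C417T.
Hba-a1: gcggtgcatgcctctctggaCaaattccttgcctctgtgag
Hba-a2: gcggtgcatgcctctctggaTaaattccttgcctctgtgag
Hbb-bs: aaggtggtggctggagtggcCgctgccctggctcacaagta
Hbb-bt: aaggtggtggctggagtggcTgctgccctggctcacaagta
Reads from the rest of these coding sequences match both genes of a pair, and their division between the rows is an estimate. Each of these rows is therefore uncertain on its own. The sequences are from GENCODE M21 transcripts.

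Hbb-bs, the member with the most counts summed over the libraries, measured 1812, 1296 and 565 CPM in Dlx5-/- libraries and 1278, 1197 and 939 CPM in control libraries. Dlx5-/- replicate 1 was the highest library and Dlx5-/- replicate 3 the lowest, so the Dlx5-/- group enclosed the control group. The log2 fold change was 0.11 (SE 0.35, 95% confidence interval -0.70 to 0.91, adjusted p = 0.943, edgeR). Hbb-bt measured 731, 535 and 304 CPM in Dlx5-/- libraries and 522, 513 and 509 CPM in control libraries. Its control libraries lay within a narrow band, with an SD of 6.36 CPM against 214 CPM among Dlx5-/- libraries. The adjusted p was 0.980 (edgeR).

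Hba-a1 measured 1180, 850 and 454 CPM in Dlx5-/- libraries and 869, 637 and 589 CPM in control libraries. Hba-a2 measured 1263, 1005 and 821 CPM in Dlx5-/- libraries and 965, 1130 and 989 CPM in control libraries. For both alpha genes, the highest and the lowest library were again Dlx5-/- replicates 1 and 3. The log2 fold changes were 0.24 (SE 0.31) for Hba-a1 and 0.00 (SE 0.15) for Hba-a2, with adjusted p of 0.803 and 0.997 (edgeR). With the near-identical rows summed before the fit, the alpha pair had a log2 fold change of 0.11 (95% confidence interval -0.37 to 0.58) and the beta pair 0.08 (95% confidence interval -0.65 to 0.81). Without Dlx5-/- replicate 3 the estimates were 0.54 for Hba-a1, 0.14 for Hba-a2, 0.29 for Hbb-bt and 0.45 for Hbb-bs, with adjusted p of 0.228, 0.686, 0.338 and 0.264 (edgeR). Without Dlx5-/- replicate 1 they were -0.10, -0.17, -0.30 and -0.29, with adjusted p from 0.639 to 0.933.

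The division of alpha counts between the pair varied between libraries. Hba-a1 took 48.3%, 45.8% and 35.6% of Hba-a1 plus Hba-a2 in Dlx5-/- libraries, and 47.4%, 36.0% and 37.3% in control libraries. Of the beta pair, Hbb-bs exceeded Hbb-bt in every library, by a ratio of 2.48, 2.42 and 1.86 in Dlx5-/- libraries and 2.45, 2.33 and 1.84 in control libraries. Replicate 3 of each group had the lowest ratio of its group. These splits rest on the estimation described above.

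The primitive globins are Hbb-y, the embryonic beta-like chain, Hbb-bh1, a second embryonic beta-like chain that mouse primitive cells silence earlier, and Hba-x, the zeta chain that takes the alpha position. Hbb-y (chromosome 7, 103851749 to 103853216) measured 389, 140 and 830 CPM in Dlx5-/- libraries and 215, 315 and 436 CPM in control libraries. Dlx5-/- replicate 3 was the highest library and Dlx5-/- replicate 2 the lowest, and the control libraries lay between. On the log2 scale edgeR estimated a difference of 0.49 (SE 0.54, 95% interval -0.74 to 1.73, adjusted p = 0.761). It was -0.29 without Dlx5-/- replicate 3 (adjusted p = 0.817), so the direction rested on that library. The estimate was 0.91 without Dlx5-/- replicate 2 (adjusted p = 0.317) and 0.77 without control replicate 3 (adjusted p = 0.777). With limma-trend on log2(CPM + 1) it was 0.20 for Hbb-y (adjusted p = 0.922) and 0.07 for Hba-x (adjusted p = 0.962).

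Hba-x (chromosome 11, 32276400 to 32278116) measured 52.0, 26.8 and 92.8 CPM in Dlx5-/- libraries and 38.3, 47.0 and 61.8 CPM in control libraries. The libraries fell in the same order as for Hbb-y. Fitted with edgeR, Hba-x had a log2 fold change of 0.24 (SE 0.38, adjusted p = 0.860), and of -0.32 without Dlx5-/- replicate 3 (adjusted p = 0.682). Hbb-bh1 (chromosome 7, 103841637 to 103843164) was near the filter of 1 CPM on the mean, with 12, 1 and 52 counts in Dlx5-/- libraries and 16, 10 and 12 in control libraries. Its log2 fold change of 0.43 (SE 0.86, adjusted p = 0.887, edgeR) was -0.88 without Dlx5-/- replicate 3 (adjusted p = 0.724). Each of the 3 primitive globins was highest in Dlx5-/- replicate 3 and lowest in Dlx5-/- replicate 2. Dlx5-/- replicate 3 was the highest of the 6 for 21.9% of all tested genes.

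The bases before the start site are shown for 2 primitive and 2 definitive globins, because primitive and definitive globins were highest in different libraries. Each line gives the 160 bases upstream of the RefSeq start site (GRCm38.p6), and capitals mark, on either strand, the motif CACCC, the box CCAAT, the motif GATAA, and the TATA-like words TATAA and ATAAA.
Hbb-y: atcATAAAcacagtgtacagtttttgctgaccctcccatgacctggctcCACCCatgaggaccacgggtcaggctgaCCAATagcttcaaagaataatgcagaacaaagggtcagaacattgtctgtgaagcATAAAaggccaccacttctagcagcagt
Hba-x: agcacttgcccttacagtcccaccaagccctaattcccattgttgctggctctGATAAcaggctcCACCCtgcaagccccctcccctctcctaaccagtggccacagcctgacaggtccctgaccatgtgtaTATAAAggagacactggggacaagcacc
Hbb-bs: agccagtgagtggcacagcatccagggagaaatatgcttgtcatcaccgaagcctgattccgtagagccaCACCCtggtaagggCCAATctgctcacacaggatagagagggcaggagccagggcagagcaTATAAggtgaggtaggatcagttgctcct
Hba-a2: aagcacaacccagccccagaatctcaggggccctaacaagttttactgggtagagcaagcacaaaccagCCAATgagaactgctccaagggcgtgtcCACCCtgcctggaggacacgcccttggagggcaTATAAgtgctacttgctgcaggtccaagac
These lie at chr7:103853208-103853367 (minus strand), chr11:32276440-32276599 (plus), chr7:103827929-103828088 (minus) and chr11:32296332-32296491 (plus). The windows of Hba-x and Hbb-bs lie inside the GENCODE spans given above for these genes, which begin further upstream than the RefSeq start sites. CACCC is the core that the erythroid factor Klf1 recognises, CCAAT is bound by NF-Y, and GATAA is a form of the site of Gata1. TATAA and ATAAA resemble the TATA box, and the pair overlaps where the letters read TATAAA.

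Promoter windows were held for 8 of the 10 members, and not for Hbb-bh1 and Slc4a1. Of the 6 globin windows, 6 held CACCC, 5 held CCAAT, 1 held GATAA and 6 held TATAA or ATAAA. The windows of Hba-a1 and Hba-a2 hold the same letters apart from their ends, so they are not separate cases. CACCC lies at -60 to -56 in Hba-a1 and at -63 to -59 in Hba-a2. Among 32851 promoter windows of the same length, 39.2% held CACCC, 25.6% CCAAT, 14.3% GATAA and 30.1% TATAA or ATAAA. The globin window without CCAAT was that of Hba-x, which alone held GATAA. The Hbb-y window read ATAAA at -28 to -24, where Hbb-bs read TATAA at -29 to -25. These matches describe the letters in the windows and say nothing of binding in these libraries.

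Ratios within a library do not depend on its scaling. Primitive globins made up 8.14%, 4.33% and 30.2% of the counts of all 7 globins in Dlx5-/- libraries, and 6.56%, 9.46% and 14.2% in control libraries. The means were 14.2% ± 13.95 in Dlx5-/- palates and 10.1% ± 3.83 in control palates (SD, n = 3 each). Dlx5-/- replicate 3 held the largest share and Dlx5-/- replicate 2 the smallest, 6.97-fold apart, so the groups overlapped. The 95% Wilson interval was 29.7% to 30.6% in Dlx5-/- replicate 3, against 13.7% to 14.6% in control replicate 3, the next highest library. Such intervals cover counting error only, and the widest interval of this share was ±0.445 percentage points. Without Dlx5-/- replicate 3, the Dlx5-/- mean was 6.24%, which is below the control mean. A share summed over members carries no test here. Rows of ribosomal RNA took 22.7%, 27.2% and 11.7% of all counts in Dlx5-/- libraries and 20.6%, 17.5% and 19.2% in control libraries, lowest in the library with the largest primitive share and highest in the one with the smallest, and their part in the share was not tested.

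**Figure D2:**
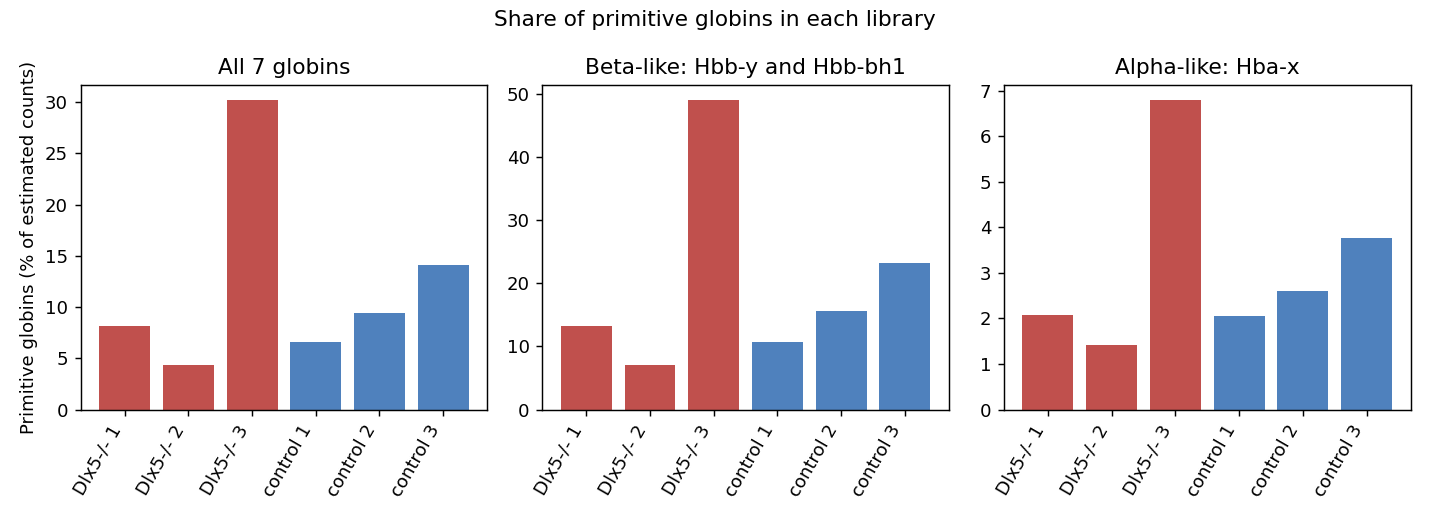
Primitive globins as a percentage of estimated counts in each library, for all 7 globins, the beta-like genes and the alpha-like gene; red bars are Dlx5-/- and blue bars control libraries, and the scales differ. Dlx5-/- replicate 3 stands highest in each panel, at 30.2%, 49.0% and 6.78%, and Dlx5-/- replicate 2 lowest.

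Among beta-like counts alone, Hbb-y and Hbb-bh1 took 13.3%, 7.11% and 49.0% in Dlx5-/- libraries and 10.7%, 15.6% and 23.2% in control libraries. Hbb-y exceeded the single Hbb-bs row in 1 library, Dlx5-/- replicate 3, where their ratio of counts was 1.47. The ratio was 0.215 and 0.108 in the other Dlx5-/- libraries and 0.168, 0.264 and 0.464 in control libraries. It depends on the estimated split of Hbb-bs from Hbb-bt. Hbb-y did not exceed that pair together, as the 49.0% shows. Among alpha-like counts, Hba-x took 2.08%, 1.42% and 6.78% in Dlx5-/- libraries and 2.05%, 2.59% and 3.77% in control libraries. The order of libraries was the same for both chains.

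Ratios between embryonic chains differed in how far they ranged. There were 7.48, 5.23 and 8.95 Hbb-y counts per Hba-x count in Dlx5-/- libraries and 5.61, 6.70 and 7.05 in control libraries, a range of 1.71-fold. Hbb-y per Hbb-bs ranged over 13.6-fold, a value that depends on the estimated split of Hbb-bs from Hbb-bt. Hbb-bh1, at 1 to 52 counts, was 0.365%, 0.0775% and 0.471% of Hbb-y in Dlx5-/- libraries and 0.801%, 0.257% and 0.395% in control libraries, a range of 10.3-fold. The balance of alpha-like to beta-like counts ranged less. It was 0.851, 0.955 and 0.803 in Dlx5-/- libraries and 0.928, 0.896 and 0.869 in control libraries, a range of 1.19-fold over all 6. The mean balance was 0.869 ± 0.0778 in Dlx5-/- palates and 0.898 ± 0.0296 in control palates (SD, n = 3 each), with overlapping groups.

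All 7 globins together took 0.526%, 0.337% and 0.355% of the counts in Dlx5-/- libraries and 0.378%, 0.398% and 0.357% in control libraries. Dlx5-/- replicate 1 was the highest, through its definitive globins, and the other 5 libraries lay close together. Definitive globins summed to 4986, 3685 and 2144 CPM in Dlx5-/- libraries and 3633, 3476 and 3027 CPM in control libraries. Primitive globins summed to 442, 167 and 927 CPM in Dlx5-/- libraries and 255, 363 and 499 CPM in control libraries. In Dlx5-/- replicate 3 the definitive sum was thus the lowest of the 6 and the primitive sum the highest, with control replicate 3 next in both. The part of the brain transcripts of Dlx5-/- replicate 3, given above, in these values was not tested.

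Levels were also put on a scale of CPM per kilobase of each gene's longest coding transcript. This scale rests on the annotated lengths, 699 bases for Hba-a1 and 554 for Hba-a2, whose coding sequences are near-identical. Within each adult-type pair it rests on the estimated split of counts too. The median over the 6 libraries was 1970 for Hbb-bs, 1799 for Hba-a2, 1064 for Hba-a1, 736 for Hbb-bt and 556 for Hbb-y. Hba-x followed at 61.8, Alas2 at 9.66, Sptb at 6.33, Hbb-bh1 at 2.56 and Slc4a1 at 2.17. Neighbours among the top 5 overlapped in their ranges over libraries, with Hbb-y running from 221 to 1311 and Hbb-bt from 433 to 1040. Hba-x, at 33.4 to 116, lay below every library of the genes above it and above every library of Alas2.

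Alas2, the erythroid enzyme of the first and rate-limiting step of haem synthesis, lies on chromosome X (150547375 to 150570638). It measured 25.5, 24.9 and 17.5 CPM in Dlx5-/- libraries and 15.9, 21.3 and 18.1 CPM in control libraries. Dlx5-/- replicates 1 and 2 lay above all control libraries, while Dlx5-/- replicate 3 lay among them. Its estimated log2 fold change was 0.29 (SE 0.18, 95% confidence interval -0.12 to 0.70, adjusted p = 0.564, edgeR). It was 0.44 without Dlx5-/- replicate 3 (adjusted p = 0.247) and stayed above 0 under each of 18 alternatives, none of which passed the test.

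Other haem genes, from a list of 12 that includes Alas1, the enzyme's form in other tissues, were all measured above the filter, and 0 passed in either direction. At an unadjusted p under 0.05 there was 1 lower and 0 higher, the mitochondrial transporter Abcb10, with a log2 fold change of -0.35 (adjusted p = 0.314, edgeR). Alad, which acts early in haem synthesis, had an estimate of 0.24 (adjusted p = 0.673), and Cpox, of a later step, -0.31 (adjusted p = 0.637). The median of the list was -0.03.

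Slc4a1 encodes band 3, the anion exchanger that is the most abundant protein of the red cell membrane (chromosome 11, 102348824 to 102366203). It had 79, 105 and 138 counts in Dlx5-/- libraries and 73, 88 and 313 in control libraries. On the CPM scale these were 9.33, 11.4 and 10.4 in Dlx5-/- libraries and 7.86, 7.12 and 44.9 in control libraries. Control replicate 3 was the highest, by more than 2-fold over every other library as in 0.395% of all tested genes, and the other control libraries were the lowest, so the control group enclosed the Dlx5-/- group. The edgeR log2 fold change was -0.91 (SE 0.65, 95% confidence interval -2.40 to 0.58, adjusted p = 0.618, edgeR). Without control replicate 3 it was 0.47 (adjusted p = 0.563), so the direction rested on that library. With limma-trend on log2(CPM + 1) it was -0.39 (adjusted p = 0.833).

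Definitive globin RNA was not raised beside Slc4a1 in control replicate 3. Per 1000 definitive globin counts there were 1.87, 3.09 and 4.84 Slc4a1 counts in Dlx5-/- libraries and 2.16, 2.05 and 14.8 in control libraries. Alas2 did not share this peak, at 5.12, 6.78 and 8.15 counts per 1000 in Dlx5-/- libraries and 4.40, 6.13 and 5.95 in control libraries.

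Some other genes of red cell precursors were also high in that library, and those given here were picked partly after their values were seen. Klf1, the erythroid Kruppel-like factor, had 13, 13 and 10 counts in Dlx5-/- libraries and 10, 8 and 51 in control libraries. Hemgn, a nuclear protein of erythroblasts, had 1, 3 and 5 counts in Dlx5-/- libraries and 1, 3 and 48 in control libraries. Gata1 had 3, 2 and 2 counts in Dlx5-/- libraries and 4, 0 and 14 in control libraries, and was below the filter. The blood group genes Rhag and Kel, also below it, had at most 6 and 4 counts in any Dlx5-/- library, and up to 17 and 16 in control libraries, both in replicate 3. These counts stood in the library with the smallest total of the 6. Other erythroid genes did not peak there. Tfrc, the transferrin receptor that takes up iron, measured 29.8, 33.3 and 46.2 CPM in Dlx5-/- libraries and 20.8, 33.4 and 35.4 CPM in control libraries, and Epor, the erythropoietin receptor, was also highest in Dlx5-/- replicate 3.

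**Figure D3:**
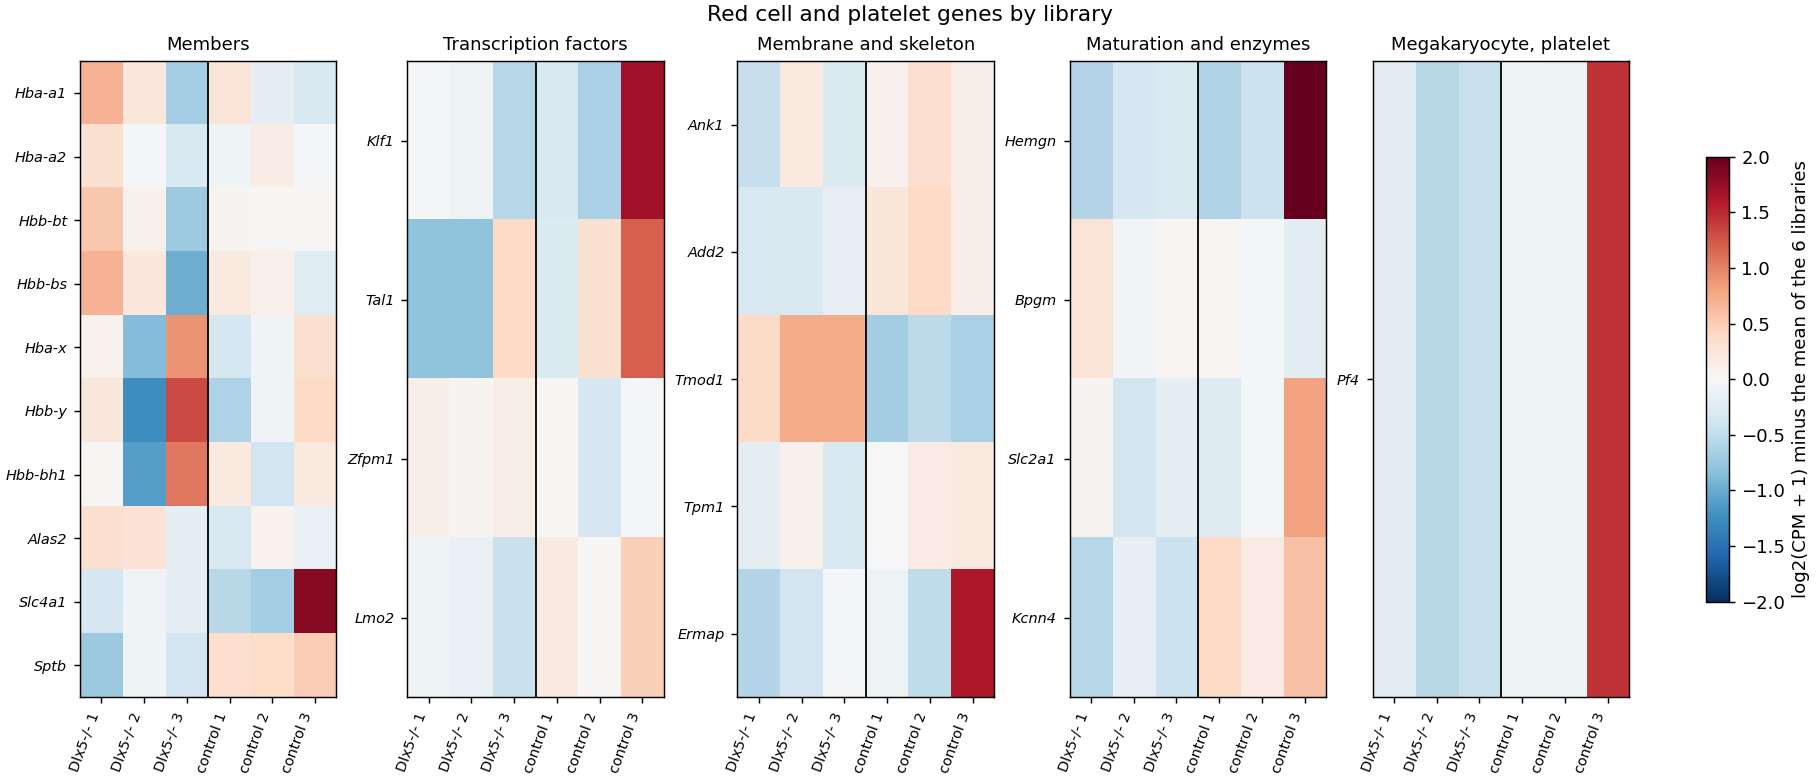
Level in each library as log2(CPM + 1) minus the mean of the 6 libraries, with colours capped at -2 and 2. The rows are the members and genes above the filter named from the transcription factor, membrane, maturation and platelet lists. Tfrc, given above and highest in Dlx5-/- replicate 3, is not drawn. Dlx5-/- libraries stand left of the line and control libraries right of it. Control replicate 3 is highest for Slc4a1, Klf1, Hemgn, Ermap and Pf4, while the primitive globins peak in Dlx5-/- replicate 3.

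Of 10 measured erythroid transcription factors, 0 passed in either direction and 6 were highest in control replicate 3, as were 16.6% of all tested genes. Lmo2, part of the Tal1 complex, had an estimate of -0.49 (adjusted p = 0.308, edgeR), Zfpm1, a Gata1 cofactor, 0.23 (0.502), Tal1 -1.01 (0.548) and Klf1 -1.24 (0.612). The median of the list was -0.11. Of 16 measured genes of maturation and red cell enzymes, 0 passed and 8 were highest in control replicate 3, with a median of -0.06. Of those 8, 2 passed the filter only through that library, so the filter fixed where they were highest, and Hemgn is one of them. Among the 16 measured were the calcium-activated potassium channel Kcnn4, at -1.13 (edgeR adjusted p = 0.236), and Hemgn at -2.94 (0.438). Slc2a1, a glucose transporter, had an estimate of -0.41 (0.570). Bpgm, which makes the haemoglobin ligand bisphosphoglycerate, had 0.17 (0.640) and was lowest in control replicate 3.

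Megakaryocytes share a progenitor with red cells, and their list moved with control replicate 3 too. It summed to 20.8 to 24.1 CPM in Dlx5-/- libraries and to 23.6, 24.2 and 70.2 CPM in control libraries. Of its 10 genes 5 were below the filter, and the other 5 were all highest in control replicate 3. Pf4, platelet factor 4, measured 7.32, 5.64 and 6.17 CPM in Dlx5-/- libraries and 8.18, 8.09 and 25.5 CPM in control libraries, with an adjusted p of 0.343 (edgeR). Macrophage genes summed to 125 to 156 CPM in Dlx5-/- libraries and to 134, 137 and 210.0 CPM in control libraries. The peak was not particular to blood genes. Oral epithelium markers summed to 193 to 251 CPM in Dlx5-/- libraries and to 227, 259 and 394 CPM in control libraries. Control replicate 3 was highest for 5 of 8 oral epithelium and 8 of 12 endothelial genes, but for 0 of 10 neuron and 0 of 10 skeletal muscle genes. The part of these cell types in the Slc4a1 values was not tested.

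Sptb encodes beta spectrin, which is part of the red cell skeleton and is also made in muscle and brain (chromosome 12, 76580488 to 76710547). It had 297, 516 and 605 counts in Dlx5-/- libraries and 703, 953 and 588 in control libraries. It measured 35.1, 55.9 and 45.5 CPM in Dlx5-/- libraries and 75.7, 77.1 and 84.3 CPM in control libraries. Every Dlx5-/- library lay below every control library. Groups did not overlap in 19.2% of all tested genes, higher in 9.49% and lower in 9.7%. The log2 fold change was -0.79 (SE 0.15, 95% confidence interval -1.14 to -0.44). It did not pass over all genes with edgeR (adjusted p = 0.0762), whereas DESeq2 called it lower (adjusted p = 0.000193), along with 2.76% of the genes to which that tool gave an adjusted p, among 3.62% called in either direction. edgeR without the filter on low counts also called it lower (adjusted p = 0.00029), along with 1.46% of genes, among 2.27% called in either direction. With 1 library left out the estimate ran from -0.98 to -0.64, and the edgeR adjusted p from 0.0631 to 0.307.

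Sptb did not follow the globins. There were 7.04, 15.2 and 21.2 Sptb counts per 1000 definitive globin counts in Dlx5-/- libraries and 20.8, 22.2 and 27.8 in control libraries. Neuron markers summed to 2214, 1895 and 1720 CPM over 10 genes in Dlx5-/- libraries and to 3206, 4089 and 3202 CPM in control libraries. Skeletal muscle markers summed to 1331, 3725 and 2264 CPM over 10 genes in Dlx5-/- libraries and to 1432, 1967 and 1134 CPM in control libraries. The neuron sum was thus lower in each Dlx5-/- library, as Sptb was. Of the 10 neuron genes, 9 had estimates below 0 and 1 above, and 2 were highest in Dlx5-/- replicate 3. All 10 muscle genes had estimates above 0. The part of either tissue in the Sptb values was not tested.

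Of 20 listed genes of the red cell membrane and its skeleton, 16 were measured above the filter and 0 passed in either direction, with a median of -0.15. Of these, 6 were highest in control replicate 3, 1 of them kept only through that library, and 3 were highest in Dlx5-/- replicate 3. Add2, beta adducin, which caps actin at spectrin junctions, measured 44.1, 43.8 and 48.8 CPM in Dlx5-/- libraries and 64.5, 72.1 and 60.1 CPM in control libraries. Its groups did not overlap, and the estimate was -0.53 (SE 0.10, adjusted p = 0.0695, edgeR). Tmod1, which caps the slow-growing end of actin filaments in red cells and muscle, had the opposite sign, at 11.6, 15.3 and 15.3 CPM in Dlx5-/- libraries and 4.95, 5.75 and 5.16 CPM in control libraries. Its estimate was 1.41 (SE 0.19, adjusted p = 0.0528, edgeR). Ank1, ankyrin of the red cell, had an estimate of -0.36 (adjusted p = 0.425), and Tpm1, a tropomyosin, -0.25 (0.428).

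**Figure D4:**
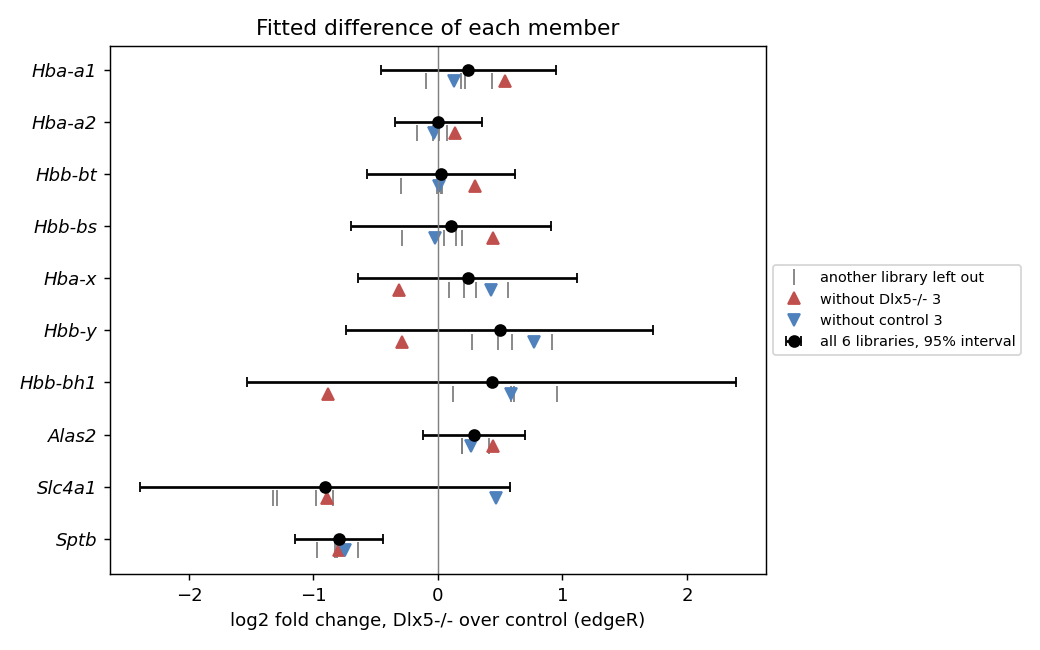
Log2 fold change of each member, Dlx5-/- over control (edgeR), with its 95% confidence interval in black, and the estimates with 1 library left out beneath it. Without Dlx5-/- replicate 3 the primitive globins cross to negative values, without control replicate 3 Slc4a1 crosses to 0.47, and every Sptb estimate stays at or below -0.64.

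The other genes of the globin clusters were near 0. Hbb-bh0 had 2, 0 and 4 counts in Dlx5-/- libraries and 0, 0 and 1 in control libraries, and Hbb-bh2 had 0 in every library. Across the 6 libraries, the genes whose log2(CPM + 1) was most like the summed definitive globins, among genes with a mean of at least 5 CPM outside the written lists, were Mrpl23-ps1 (Pearson r = 0.991), Selenok (0.988), Ift46 (0.988), Gper1 (0.987), Ppcs (0.986), Derl2 (0.984), Camk1 (0.983) and Rpl37 (0.980). These are descriptions over 6 points that share their libraries and scaling.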

How the data were processed

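Per the labels' protocols, posterior palates went through RNeasy purification and TruSeq mRNA library preparation. STAR 2.4.1d, Partek and the build mm10 are listed in the submitters' processing notes. Which annotation, counting settings and strand option were applied is not given in the sources used here. The deposited table, which calls itself normalized, holds estimated counts: column totals differ, and 64.5% of values above 0.5 were whole within 0.001. There was 1 more column, which fits none of the labelled samples, and it stayed out of every step.

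Estimated counts were rounded. Genes with a mean of at least 1 CPM were kept (16218). The main test was edgeR 4.0.16 quasi-likelihood (R 4.3.3) with TMM factors, no block and Benjamini-Hochberg adjustment over all kept genes. The SE came from the F statistic. Alternatives used DESeq2 1.42.0, limma 3.58.1, other scalings and filters, and libraries left out. Members and lists were chosen with earlier results of these data known. All members are named, and at most 4 genes per pathway list, those with the smallest p, besides genes named after their values were seen (Gata1, Rhag, Kel, Ermap, Pf4, Tfrc, Epor, Cygb, Hbb-bh0, Hbb-bh2, Cdh5, Ttr and Alb). Coordinates and transcript lengths are from GENCODE M21 and promoters from RefSeq, both GRCm38, the assembly also called mm10. Some genes that this rule names are not reported here. Figures used matplotlib 3.10.9.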

Additional observations from a re-analysis of the deposited data

How the results depend on the processing

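The number of genes called was 1 with all libraries and also with median-of-ratios factors, with globins out of the library size, with near-identical rows summed and, as an alternative chosen after seeing the data, with ribosomal RNA rows removed. It was 41 with library totals, 679 with no filter, 74 with a filter of 5 CPM, 506 with DESeq2, 97 and 96 with limma-trend at pseudocounts of 1 and 0.5, 0 with a replicate block, and 60 without Dlx5-/- replicate 3 and control replicate 3 together, the last chosen after seeing the data. With 1 library left out it ran from 0 to 164. Members called were 0 throughout, except 1 (Sptb) with no filter and with DESeq2, and 0 to 0 with 1 library left out. Over all tested genes, same-numbered libraries did not deviate together (correlations -0.014, -0.011 and 0.020), so the main fit did not take the numbers as pairs. Globin values did follow the number. The definitive globin sum fell from replicate 1 to replicate 3 in both groups, and the primitive share was highest in replicate 3 of both. The fit with the replicate block takes the numbers as pairs. The causes of this order and of the differences between fits were not tested.

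Estimates near 0 changed sign easily. Hba-a2 was -0.0006 with median-of-ratios factors, -0.027 with library totals, -0.0010 with a filter of 5 CPM, -0.0007 with DESeq2, -0.016 with either limma pseudocount and -0.017 with the replicate block. Hbb-bt was -0.025 with library totals, -0.065 with either limma pseudocount and -0.063 with the block, and Hbb-bs -0.038 with either pseudocount and -0.035 with the block. With the block, smaller estimates of the same sign were 0.23 for Hbb-y, 0.09 for Hba-x and -0.45 for Slc4a1. Hbb-bh1 was -0.0087 and -0.11 with the pseudocounts of 1 and 0.5 and -0.10 with the block. Without Dlx5-/- replicate 3 and control replicate 3 together, Hba-x was -0.12, Hbb-y -0.0069, Hbb-bh1 -0.72 and Slc4a1 0.47. With 1 library left out, ranges were -0.10 to 0.54 for Hba-a1, -0.17 to 0.14 for Hba-a2, -0.30 to 0.29 for Hbb-bt, -0.29 to 0.45 for Hbb-bs, -0.32 to 0.56 for Hba-x, -0.29 to 0.91 for Hbb-y, -0.88 to 0.96 for Hbb-bh1 and -1.33 to 0.47 for Slc4a1. Alas2 and Sptb kept their sign under every alternative run.

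The difference in primitive share, Dlx5-/- minus control, was 4.16 percentage points with all libraries and -3.82 to 9.10 with 1 left out. Counts of 1 to 52 for Hbb-bh1 limit its precision, and it has no value with the filter of 5 CPM. The fit with near-identical rows summed gives none for the single adult-type globins.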

Other observations

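Endothelial genes, which line the vessels that carry red cells, summed to 470, 530 and 436 CPM over 12 genes in Dlx5-/- libraries and 532, 541 and 647 CPM in control libraries. Each Dlx5-/- library lay below each control library, and 0 of the 12 genes passed. Cdh5, the cadherin of endothelial junctions, measured 128, 147 and 120 CPM in Dlx5-/- libraries and 163, 166 and 201 CPM in control libraries, with a log2 fold change of -0.42 (adjusted p = 0.158, edgeR). Definitive globins did not share the order of libraries of the endothelial sums. Cytoglobin, Cygb, a globin of fibroblast-like cells, measured 17.5, 12.6 and 12.1 CPM in Dlx5-/- libraries and 10.01, 16.4 and 16.6 CPM in control libraries. Epor, the erythropoietin receptor, had 6, 7 and 29 counts in Dlx5-/- libraries and 3, 5 and 8 in control libraries, and was highest in Dlx5-/- replicate 3. Ttr, from the list written for hepatocytes but also made by choroid plexus, had 5310, 10 and 252 counts in Dlx5-/- libraries and 4, 13 and 9 in control libraries, while Alb had 0, 4 and 0 in Dlx5-/- libraries and 4, 0 and 0 in control libraries.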
